A study of Mus musculus with 18 samples.

Results

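The genes described here are 43 members of the triplicated segment of mouse chromosome 16, from Tmem50b to Zbtb21, out of 55385 genes counted. They lie on the telomeric side of the interferon receptor cluster (Ifnar2, Il10rb, Ifnar1 and Ifngr2). Members were taken as rows of the count table on chromosome 16 whose symbol is on a list of genes of this stretch. Gart, Dyrk1a, Rcan1, Cbr1, Erg and some other genes of the stretch are not on the list. The rule names no measured value, but the list was drawn up with earlier results of these data known. In GRCm38 coordinates the members span positions 91574503 to 97962622 of chromosome 16, the end of a segment that runs from 75540514 to 97962622. Tmem50b begins 8.88 kb beyond the receptor cluster (91372783 to 91565623). The annotation lists 41 members as protein-coding and 2, Mx1 and Mx2, as polymorphic pseudogenes.

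Polyadenylated RNA of adult mouse liver was sequenced in 18 libraries, 6 from each of 3 genotypes with 3 males and 3 females in each. Dp16-2xIFNRs mice (17.7 to 18.0 weeks old) carry the duplicated segment with the dosage of the interferon receptor cluster brought back to normal. Dp16 mice (17.1 to 18.0 weeks old) carry the duplication of the whole segment, the receptors included, and are used as a model of trisomy 21. WT mice (17.1 to 18.0 weeks old) were C57BL/6J without the duplication, and none of the groups is labelled with a treatment. All 43 members are therefore present in 3 copies in both carrier groups, and the groups differ from each other in the receptors. The labels do not state that the libraries came from separate mice, so p-values measure the spread between these libraries.

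Most of this stretch is shared in content and order with the long arm of human chromosome 21, and several members (Runx1, Ets2, Hmgn1, Itsn1 and Ttc3 among them) are studied for their part in trisomy. Where transcription follows copy number, a gene present in 3 copies in place of 2 gives a ratio of 3 to 2, a log2 fold change of 0.585. The members have no shared function: they hold chromatin proteins, transcription factors, parts of the endosomal sorting machinery, a proteasome assembly chaperone, metabolic enzymes, junction proteins, ion channel subunits and the interferon-induced Mx proteins.

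Total counts were 38236222 to 51008693 in Dp16-2xIFNRs libraries, 41077662 to 59923315 in Dp16 libraries and 43561249 to 53105543 in WT libraries. Members took 0.0607% to 0.0687% of all counts in Dp16-2xIFNRs libraries, 0.0566% to 0.105% in Dp16 libraries and 0.0414% to 0.0559% in WT libraries. Levels are given as CPM, the count relative to the library total scaled with TMM factors, between groups and as RPKM, which also divides by gene length, between genes. Dp16 libraries 4 and 5 stood apart, with the lowest and the highest TMM factor (0.803 and 1.34). In the liver as labelled, 6 hepatocyte markers (Alb, Apoa1, Ttr, Hnf4a, Cps1 and Serpina1a) summed to 79280 to 129800 CPM in Dp16-2xIFNRs, 74880 to 115200 CPM in Dp16 and 81670 to 121300 CPM in WT libraries, while 5 pancreas markers summed to at most 0.99 CPM in any library. The 4 receptors had a median log2 fold change of −0.486 in Dp16-2xIFNRs against Dp16 livers. All 4 were lower there with an unadjusted p under 0.05 (edgeR quasi-likelihood test), against 7.11% of all genes. In the same fit, without the gene length offset described further on, the 16 longer members tested had a median of −0.55. The part of gene length in the receptor values was not tested.

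Of the 43 members, 32 passed the low count filter and were tested, each among 15208 genes with Benjamini-Hochberg adjustment over all of them; a member was called at an adjusted p under 0.05. The start regions of 33 members are in the RefSeq table of promoters (GRCm38.p6), and 4 are shown because the results turn on their genes. Tmem50b and Vps26c are the members called in Dp16-2xIFNRs livers, and Cryzl1 and Itsn1 are neighbours transcribed away from each other, with RefSeq starts 568 bases apart, that had log2 fold changes of 1.05 and 0.19 in Dp16-2xIFNRs livers against WT. With the gene length offset described further on, Cryzl1 (2968 bases) was at 1.05 and Itsn1 (19992 bases) at 0.66 in that comparison. Each line gives the 250 bases before the RefSeq start, 5′ to 3′ on the strand of the gene, and capitals mark a GC box (GGGCGG or its complement CCGCCC) or an ETS core (CCGGAAG or its complement CTTCCGG).
Tmem50b, chr16:91597681-91597930, minus strand: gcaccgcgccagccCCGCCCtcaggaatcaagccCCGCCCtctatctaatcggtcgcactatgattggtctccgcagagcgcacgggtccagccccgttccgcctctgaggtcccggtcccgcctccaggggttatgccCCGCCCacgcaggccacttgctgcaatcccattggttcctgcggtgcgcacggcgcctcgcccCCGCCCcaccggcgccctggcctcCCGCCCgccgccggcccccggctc
Vps26c, chr16:94526630-94526879, minus strand: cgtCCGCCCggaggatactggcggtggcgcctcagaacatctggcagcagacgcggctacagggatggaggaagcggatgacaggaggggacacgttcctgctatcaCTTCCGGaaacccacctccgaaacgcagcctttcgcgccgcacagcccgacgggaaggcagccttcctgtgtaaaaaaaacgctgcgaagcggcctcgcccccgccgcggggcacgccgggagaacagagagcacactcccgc
Cryzl1, chr16:91728803-91729052, minus strand: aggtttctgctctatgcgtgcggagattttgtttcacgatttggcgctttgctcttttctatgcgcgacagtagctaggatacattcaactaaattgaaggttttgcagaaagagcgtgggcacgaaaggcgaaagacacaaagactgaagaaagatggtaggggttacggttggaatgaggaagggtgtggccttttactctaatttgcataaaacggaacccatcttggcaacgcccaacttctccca
Itsn1, chr16:91729121-91729370, plus strand: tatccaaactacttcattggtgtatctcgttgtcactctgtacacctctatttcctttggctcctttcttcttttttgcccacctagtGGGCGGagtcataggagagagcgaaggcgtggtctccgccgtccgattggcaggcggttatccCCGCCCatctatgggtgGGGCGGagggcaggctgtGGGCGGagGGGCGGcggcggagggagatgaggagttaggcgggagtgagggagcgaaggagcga
The Tmem50b and Itsn1 windows hold 5 GC boxes each, the Vps26c window holds 1 GC box and 1 ETS core, and the Cryzl1 window holds neither motif. Over both strands, a GC box was found in 17 of the 27 tested members with a window (63%), in 3 of the 6 with a window that were not tested (50%) and in 35.4% of 27018 genes of the table. An ETS core was found in 6 of 27 tested members (22.2%) and 7.83% of all genes, and TATAAA in 0 of 27 and in 14.3%. The median number of CG pairs was 25 in the windows of tested members, 18.5 in those of members not tested and 6 over all genes. These are counts of letters in a window and say nothing of binding. The 27018 genes were not limited to those that passed the low count filter, and shares among tested genes alone were not taken. The contrasts may therefore not be particular to this stretch.

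In Dp16-2xIFNRs livers Tmem50b and Vps26c rose against WT, and 27 of the 32 tested members had a log2 fold change above 0. Their median was 0.50, or 1.41-fold, with quartiles at 0.14 and 0.87 (6 libraries per group) and a range of −0.10 for Son to 1.07 for Tmem50b. Over all 15208 genes tested, 47.4% were above 0 and the median was −0.02. Both called members were higher, against 0.0723% of all genes called higher (edgeR quasi-likelihood test), and 12 members were higher with an unadjusted p under 0.05, against 3.43% of all genes, and 0 were lower, against 5.23%. In 7 members every Dp16-2xIFNRs library lay above every WT library, against 0.48% of all genes: Tmem50b, Cryzl1, Smim11, Vps26c, Psmg1, Hmgn1 and Igsf5. The 95% interval of the log2 fold change contained 0.585 in 27 of the 32 members and 0 in 20; it lay above 0.585 for Tmem50b and below it for Son, Hlcs, Ttc3 and C2cd2. In bulk liver RNA, a change in the number of cells of a type and a change in RNA per cell cannot be told apart.

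In Dp16 livers all 32 tested members had a log2 fold change above 0 against WT. Their median was 0.64, or 1.56-fold, with quartiles at 0.54 and 0.75 (6 libraries per group) and a range of 0.19 for Ripply3 to 1.60 for Runx1. Among all genes tested 51.4% were above 0, with a median of 0.01. The edgeR test called 0 members, against 0.0197% of all genes called higher; 17 had an unadjusted p under 0.05 and were higher, against 2.52% of all genes, and 0 were lower, against 2.35%. DESeq2 called 1 member, Brwd1, where it called 0.283% of all genes higher, and limma-voom called 0, where it called 0.0132%. The groups overlapped in all 32 members, where 0.138% of all genes had every Dp16 library above every WT library. The 95% interval of each of the 32 contained 0.585, and that of 15 contained 0 as well. Without Dp16 libraries 4 and 5, which stood apart, the median was 0.59 and edgeR called 0 members, against 0.00635% of all genes called higher. In Dp16-2xIFNRs against WT, fitted without them, the median was 0.50 and 4 members were called, against 0.248%. Both comparisons use the same 6 WT libraries.

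Compared with Dp16 livers, Dp16-2xIFNRs livers had a median log2 fold change of −0.19 over the 32 members, with 12 above 0 (48.1% of all genes). The edgeR, DESeq2 and limma-voom tests each called 0 members, and of all genes the edgeR and limma-voom tests called 0 (0%) and DESeq2 called 1 higher (0.00658%) and 6 lower (0.0395%). At an unadjusted p under 0.05, 1 member was higher (Tmem50b; 2.21% of all genes) and 4 were lower (Ttc3, Hlcs, Ripk4 and Ets2; 7.11% of all genes). Their log2 fold changes were 0.40 (SE 0.18) for Tmem50b, −0.46 (SE 0.16) for Ttc3, −0.63 (SE 0.24) for Hlcs, −0.75 (SE 0.32) for Ripk4 and −0.52 (SE 0.23) for Ets2, with an edgeR adjusted p of 0.532 for each.

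With the mean of both carrier groups set against WT (12 libraries against 6), all 32 members were above 0 (46.4% of all genes), and their median was 0.54 on the log2 scale, or 1.46-fold. Tmem50b, Vps26c and Brwd1 were called higher (0.112% of all genes), and 14 members were higher with an unadjusted p under 0.05 (3.02% of all genes).

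**Figure D1:**
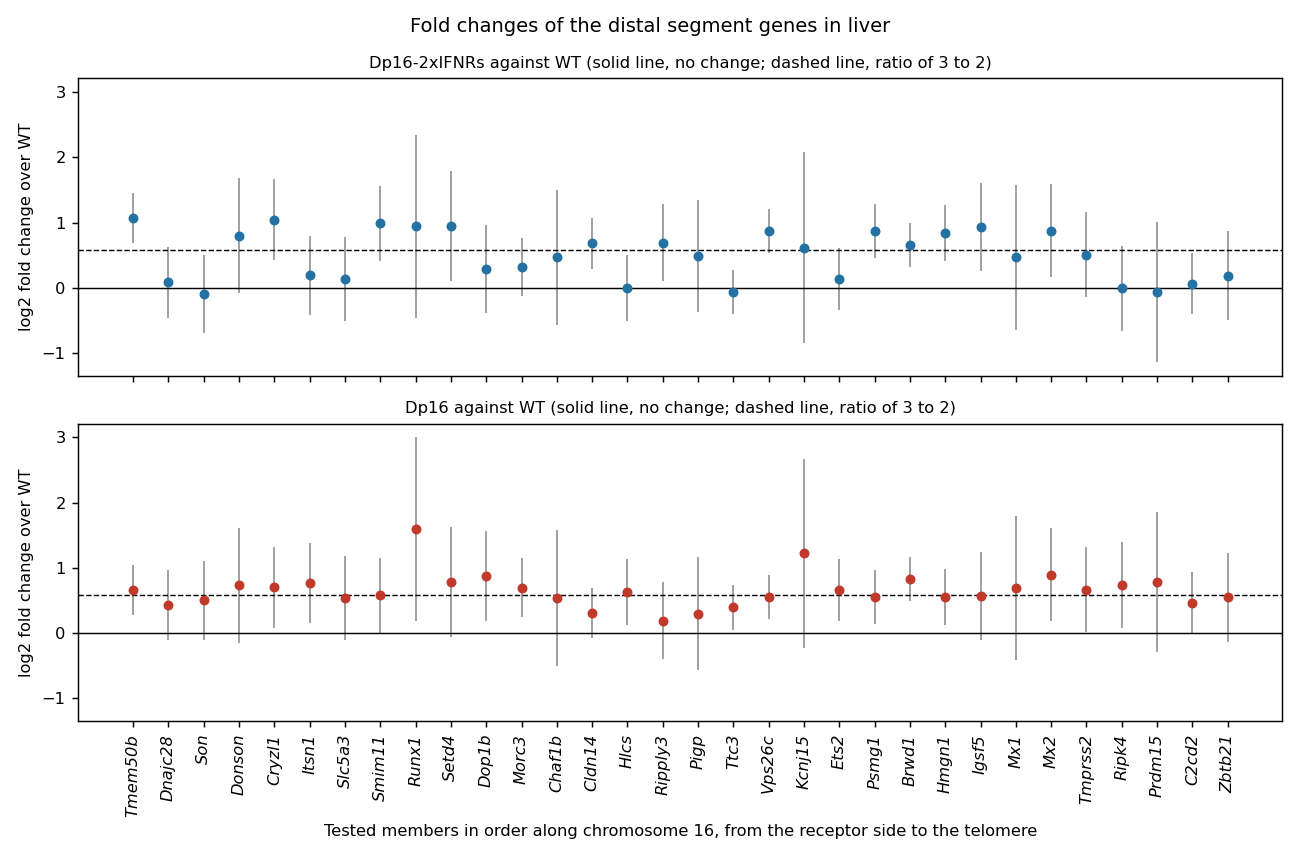
Log2 fold change over WT (vertical axis) of the 32 tested members in their order along chromosome 16 (horizontal axis), for Dp16-2xIFNRs livers above and Dp16 livers below; points are edgeR estimates and bars their 95% intervals. In Dp16-2xIFNRs livers 27 of 32 points lie above 0 and they spread from −0.10 to 1.07, while in Dp16 livers all 32 lie above 0.

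Among the members that work in membrane traffic, Tmem50b, a small multi-pass membrane protein of the secretory pathway and the member next to the receptors, measured 6.98 to 11.8 CPM (median 9.17) in Dp16-2xIFNRs livers, 5.71 to 7.91 CPM (median 6.87) in Dp16 livers and 3.37 to 6.51 CPM (median 4.02) in WT livers. Every Dp16-2xIFNRs library lay above every WT library, and 4 of 6 Dp16 libraries lay above the highest WT library. It was 2.09-fold higher in Dp16-2xIFNRs livers (log2 1.07, SE 0.18, edgeR adjusted p = 0.0352) and 1.59-fold higher in Dp16 livers (log2 0.67, SE 0.18, edgeR adjusted p = 0.368). The call in Dp16-2xIFNRs livers was lost without WT library 1, 2, 3, 5 or 6 or Dp16-2xIFNRs library 2, 3, 5 or 6, left out singly, with an edgeR adjusted p of 0.0129 to 0.108 and a log2 fold change of 0.99 to 1.20 over the 18 libraries left out.

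Vps26c, a subunit of the retriever complex that returns membrane proteins from endosomes to the cell surface, measured 26.04 to 34.8 CPM (median 27.6) in Dp16-2xIFNRs livers, 18.5 to 34.9 CPM (median 21.8) in Dp16 livers and 13.2 to 19.3 CPM (median 14.7) in WT livers. The Dp16-2xIFNRs libraries were all above the WT libraries, as were 4 of 6 Dp16 libraries, among which library 4 stood far above the others. Vps26c had a log2 fold change of 0.88 (SE 0.16, edgeR adjusted p = 0.0357) in Dp16-2xIFNRs livers and 0.55 (SE 0.16, edgeR adjusted p = 0.451) in Dp16 livers. That call did not hold without any 1 of the 6 WT or the 6 Dp16-2xIFNRs libraries, nor without Dp16 library 2 or 6 (edgeR adjusted p 0.00512 to 0.148, log2 fold change 0.80 to 0.94).

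Itsn1, an endocytic scaffold protein, measured 14.6 to 20.8 CPM (median 18.4) in Dp16-2xIFNRs livers, 9.77 to 38.7 CPM (median 28.4) in Dp16 livers and 8.44 to 21.6 CPM (median 15.9) in WT livers. In Dp16 livers 3 libraries lay well above the WT range and 3 within it, and all 6 Dp16-2xIFNRs libraries lay within the WT range. Itsn1 had a log2 fold change of 0.19 (SE 0.29) in Dp16-2xIFNRs and 0.77 (SE 0.29) in Dp16 livers. Dop1b, a large protein of endosome and Golgi traffic, had the largest log2 fold change in Dp16 livers among members whose mean log2 CPM reached 1. It measured 10.6 to 25.8 CPM (median 17.9) in Dp16-2xIFNRs livers, 8.43 to 40.2 CPM (median 25.1) in Dp16 livers and 7.74 to 22.6 CPM (median 14.2) in WT livers. Of the 6 Dp16 libraries, 5 were above the highest WT library and library 4 was near the lowest. The log2 fold change of Dop1b was 0.29 (SE 0.33) in Dp16-2xIFNRs and 0.88 (SE 0.33) in Dp16 livers.

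Chromatin proteins and regulators of transcription make up the largest group. Hmgn1, which binds nucleosomes and loosens chromatin, had the highest level of all members, with 67.1 ± 8.35 RPKM in Dp16-2xIFNRs, 57.5 ± 12.7 RPKM in Dp16 and 39.04 ± 6.43 RPKM in WT livers (SD, n = 6). In CPM it measured 118 to 166 CPM (median 157) in Dp16-2xIFNRs livers, 72.7 to 204 CPM (median 116) in Dp16 livers and 67.4 to 104 CPM (median 85.95) in WT livers. The Dp16-2xIFNRs libraries lay above the WT libraries, and 2 of 6 Dp16 libraries lay within the WT range. Hmgn1 had a log2 fold change of 0.84 (SE 0.21, edgeR adjusted p = 0.141) in Dp16-2xIFNRs livers and 0.55 (SE 0.21, edgeR adjusted p = 0.798) in Dp16 livers.

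Brwd1, a chromatin protein with bromodomains and WD repeats, measured 11.3 to 17.3 CPM (median 15.2) in Dp16-2xIFNRs livers, 12.1 to 20.01 CPM (median 16.3) in Dp16 livers and 6.66 to 13.4 CPM (median 8.902) in WT livers. In Dp16 livers 5 of 6 libraries and in Dp16-2xIFNRs livers 4 of 6 lay above the highest WT library. Brwd1 had a log2 fold change of 0.66 (SE 0.16, edgeR adjusted p = 0.141) in Dp16-2xIFNRs livers, 0.83 (SE 0.16, edgeR adjusted p = 0.0793) in Dp16 livers and 0.75 (SE 0.14, edgeR adjusted p = 0.0358) for the mean of both carrier groups. DESeq2 called Brwd1 in Dp16 livers (adjusted p = 0.000206). For the mean of both groups, Brwd1 lost its call without WT library 2, 3, 4, 5 or 6, Dp16-2xIFNRs library 1, 3, 4, 5 or 6, or Dp16 library 3 (edgeR adjusted p 0.0312 to 0.14 over 18 libraries left out). It was also lost with no low count filter (adjusted p = 0.077), with no sex term (0.0994), with the replicate number as a block (0.0643), in males or females alone, with limma on log2(RPKM + 0.1) (0.207) or log2(RPKM + 1) (0.278) and with the gene length offset described further on, with Dp16 libraries 4 and 5 (0.14) or without them (0.0934). In the same comparison the call of Tmem50b was lost in 10 of 18 cases and that of Vps26c in 15 of 18.

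Runx1, a transcription factor of blood cell development, had the lowest mean RPKM of the tested members in WT livers. Its level was 0.0843 ± 0.0421 RPKM in Dp16-2xIFNRs, 0.161 ± 0.11 RPKM in Dp16 and 0.0481 ± 0.0351 RPKM in WT livers (SD, n = 6). In CPM it measured 0.274 to 1.17 CPM (median 0.621) in Dp16-2xIFNRs livers, 0.303 to 1.95 CPM (median 1.12) in Dp16 livers and 0 to 0.751 CPM (median 0.319) in WT livers. Of the Dp16 libraries, 4 lay above the highest WT library. Runx1 had a log2 fold change of 0.94 (SE 0.67) in Dp16-2xIFNRs and 1.60 (SE 0.67) in Dp16 livers. Liver RNA also holds that of blood cells. The 6 markers of neutrophils and monocytes, none of them at 0 in every library, summed to 7.44 to 19.7 CPM in Dp16-2xIFNRs, 6.81 to 18.0 CPM in Dp16 and 2.71 to 7.85 CPM in WT libraries. Of the 5 tested, 2 were higher with an unadjusted p under 0.05 in each carrier group against WT. Of all genes, 3.43% were so in Dp16-2xIFNRs and 2.52% in Dp16 livers. Markers of B and plasma cells (5 genes) summed to 14.1 to 52.3 CPM in Dp16-2xIFNRs, 3.74 to 35.6 CPM in Dp16 and 2.03 to 18.2 CPM in WT libraries, and those of T and NK cells (6 genes) to 4.93 to 9.21, 1.81 to 7.24 and 1.44 to 8.34 CPM in the same groups. Those of megakaryocytes and platelets (5 genes, 1 of them at 0 in every library) summed to 1.64 to 4.16 CPM in Dp16-2xIFNRs, 1.06 to 6.25 CPM in Dp16 and 0.863 to 3.30 CPM in WT libraries. Erythroid markers (5 genes, 4 tested) summed to 79.98 to 297.4 CPM in Dp16-2xIFNRs, 12.01 to 382.1 CPM in Dp16 and 44.75 to 185 CPM in WT libraries. Of the 4, 3 in Dp16-2xIFNRs and 1 in Dp16 livers were higher with an unadjusted p under 0.05 (3.43% and 2.52% of all genes). Markers of mast cells (4 genes) summed to 1.368 to 2.576, 0.8493 to 4.802 and 1.439 to 4.215 CPM in Dp16-2xIFNRs, Dp16 and WT libraries, and those of Kupffer cells and macrophages (6 genes) to 183.9 to 254.6, 189.9 to 279.6 and 193.9 to 443.7 CPM. By the same measure, 2 of 5 B and plasma cell markers and 1 of 5 tested T and NK cell markers were higher in Dp16-2xIFNRs livers. In those livers 1 mast cell marker and 1 Kupffer cell or macrophage marker were lower (5.23% of all genes). In Dp16 livers 1 B and plasma cell marker was higher. Megakaryocyte and platelet markers had 0 higher and 0 lower in either group. The part of these cells in the Runx1 values was not tested.

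Ets2, an ETS family transcription factor, measured 18.9 to 25.9 CPM (median 21.6) in Dp16-2xIFNRs livers, 13.5 to 53.2 CPM (median 33.9) in Dp16 livers and 10.5 to 27.8 CPM (median 20.3) in WT livers. All 6 Dp16-2xIFNRs libraries lay within the WT range, while 4 of 6 Dp16 libraries lay above it. Ets2 had a log2 fold change of 0.14 (SE 0.23) in Dp16-2xIFNRs and 0.66 (SE 0.23) in Dp16 livers. Son, a nuclear speckle protein needed for splicing of many transcripts, measured 47.2 to 60.4 CPM (median 48.8) in Dp16-2xIFNRs livers, 36.7 to 139 CPM (median 70.8) in Dp16 livers and 27.3 to 86.6 CPM (median 54.8) in WT livers. Dp16 libraries ran from within the WT range to far above it, and Dp16-2xIFNRs libraries were close together near the WT median. Son had a log2 fold change of −0.10 (SE 0.29) in Dp16-2xIFNRs and 0.50 (SE 0.29) in Dp16 livers. The 3′ ends of Son and Donson overlap by 2414 bases on opposite strands, and the sources used here do not say whether counting used strand, so reads of the overlap may fall to either gene.

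Setd4, a SET domain protein of the lysine methyltransferase family, measured 1.78 to 11.3 CPM (median 6.51) in Dp16-2xIFNRs livers, 1.47 to 9.22 CPM (median 6.19) in Dp16 livers and 1.603 to 8.23 CPM (median 2.48) in WT livers. The libraries of each group spread widely, and all 3 groups overlapped. Setd4 had a log2 fold change of 0.95 (SE 0.40) in Dp16-2xIFNRs and 0.78 (SE 0.40) in Dp16 livers. Ripply3, a co-repressor of transcription, had the smallest change of all tested members in Dp16 livers. It measured 1.82 to 5.22 CPM (median 3.81) in Dp16-2xIFNRs livers, 1.999 to 3.56 CPM (median 2.36) in Dp16 livers and 1.56 to 3.12 CPM (median 1.96) in WT livers, with log2 fold changes of 0.70 (SE 0.28) in Dp16-2xIFNRs and 0.19 (SE 0.28) in Dp16 livers, and its 3 groups overlapped.

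Zbtb21, a zinc finger repressor and the last gene of the segment, measured 4.698 to 11.2 CPM (median 6.202) in Dp16-2xIFNRs livers, 4.33 to 12.97 CPM (median 8.02) in Dp16 livers and 3.49 to 12.4 CPM (median 4.78) in WT livers. A single WT library and a single Dp16-2xIFNRs library stood well above the others of their groups. Zbtb21 had a log2 fold change of 0.19 (SE 0.32) in Dp16-2xIFNRs and 0.55 (SE 0.33) in Dp16 livers. Nearly all of Zbtb21 lies within the span of C2cd2 on the same strand (19242 bases in common), so their reads may not be fully separable. The remaining regulators were Morc3, a nuclear ATPase, Chaf1b, a subunit of chromatin assembly factor 1, and Prdm15, a zinc finger transcription factor. The log2 fold change of Morc3 was 0.32 (SE 0.21) in Dp16-2xIFNRs and 0.70 (SE 0.22) in Dp16 livers. In the same order it was 0.47 (SE 0.49) and 0.53 (SE 0.50) for Chaf1b and −0.06 (SE 0.52) and 0.78 (SE 0.51) for Prdm15. Donson, which helps to build the replicative helicase, had 0.80 (SE 0.42) in Dp16-2xIFNRs and 0.73 (SE 0.42) in Dp16 livers.

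**Figure D2:**
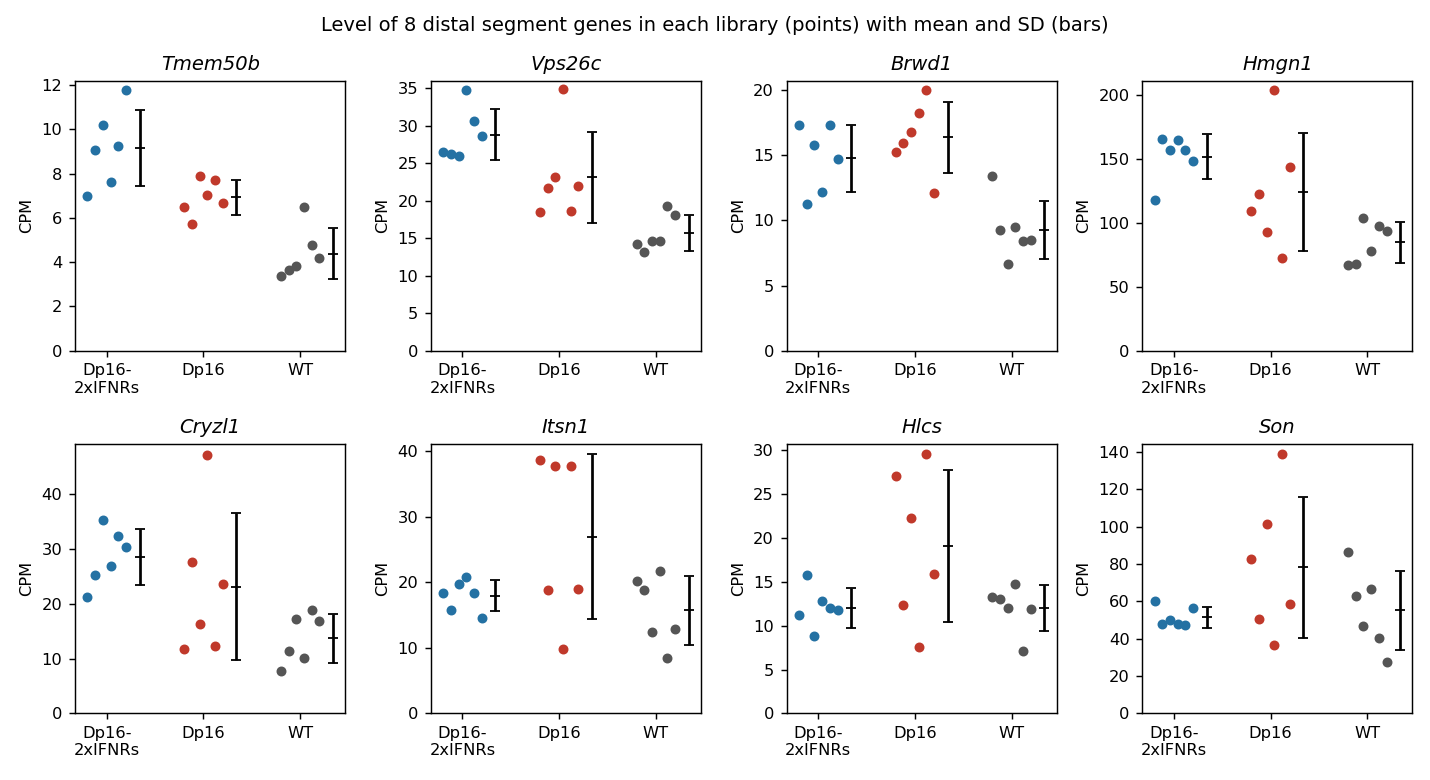
CPM (vertical axis, from 0) of 8 members in each of the 18 libraries, by group (horizontal axis: Dp16-2xIFNRs, Dp16, WT); points are libraries, and the bars beside them give the mean and SD (n = 6). Tmem50b, Vps26c, Hmgn1 and Cryzl1 have every Dp16-2xIFNRs point above every WT point, whereas Itsn1 and Son have Dp16 points spread over a wide range and all Dp16-2xIFNRs points within the WT range.

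Of the members in protein assembly and turnover, Psmg1, a chaperone that starts the assembly of the proteasome ring, had the second highest mean RPKM, with 36.95 ± 2.86 RPKM in Dp16-2xIFNRs, 31.4 ± 7.33 RPKM in Dp16 and 20.9 ± 2.28 RPKM in WT livers (SD, n = 6). In CPM it measured 35.7 to 44.9 CPM (median 40.03) in Dp16-2xIFNRs livers, 18.3 to 55.9 CPM (median 30.9) in Dp16 livers and 17.4 to 27.8 CPM (median 20.3) in WT livers. The Dp16-2xIFNRs libraries were all above the WT libraries, and 3 of 6 Dp16 libraries were above the highest WT library. Psmg1 had a log2 fold change of 0.87 (SE 0.20, edgeR adjusted p = 0.119) in Dp16-2xIFNRs livers and 0.56 (SE 0.20, edgeR adjusted p = 0.738) in Dp16 livers. Ttc3, a ubiquitin ligase that targets active Akt, measured 7.32 to 16.7 CPM (median 11.2) in Dp16-2xIFNRs livers, 8.25 to 26.5 CPM (median 14.3) in Dp16 livers and 9.47 to 13.6 CPM (median 11.4) in WT livers. Both carrier groups overlapped WT, and 3 of 6 Dp16 libraries were above the highest WT library. Ttc3 had a log2 fold change of −0.06 (SE 0.16) in Dp16-2xIFNRs and 0.39 (SE 0.16) in Dp16 livers. Ttc3 and Pigp overlap by 1225 bases on opposite strands. Dnajc28, a member of the DnaJ chaperone family, measured 5.02 to 9.87 CPM (median 8.33) in Dp16-2xIFNRs livers, 5.92 to 15.2 CPM (median 9.59) in Dp16 livers and 3.87 to 10.1 CPM (median 7.84) in WT livers. The log2 fold change was 0.08 (SE 0.26) in Dp16-2xIFNRs and 0.43 (SE 0.26) in Dp16 livers, and all 3 groups overlapped.

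Enzymes and transporters formed the next group. Hlcs, the holocarboxylase synthetase that attaches biotin to carboxylases, measured 8.78 to 15.7 CPM (median 11.9) in Dp16-2xIFNRs livers, 7.52 to 29.6 CPM (median 19.02) in Dp16 livers and 7.07 to 14.7 CPM (median 12.5) in WT livers. The Dp16-2xIFNRs and WT libraries covered nearly the same range, with 1 Dp16-2xIFNRs library above it, and 4 of 6 Dp16 libraries lay above the highest WT library. Hlcs had a log2 fold change of −0.00376 (SE 0.24) in Dp16-2xIFNRs and 0.63 (SE 0.24) in Dp16 livers. Cryzl1, a quinone oxidoreductase-like protein, measured 21.3 to 35.3 CPM (median 28.6) in Dp16-2xIFNRs livers, 11.8 to 47.2 CPM (median 19.9) in Dp16 livers and 7.79 to 18.8 CPM (median 14.1) in WT livers. Every Dp16-2xIFNRs library was above every WT library, and Dp16 livers spread from within the WT range to well above it. Cryzl1 had a log2 fold change of 1.05 (SE 0.30, edgeR adjusted p = 0.249) in Dp16-2xIFNRs livers and 0.70 (SE 0.30, edgeR adjusted p = 0.924) in Dp16 livers. With the number in the libraries' descriptions as a random block (limma-voom), Cryzl1 was called in Dp16-2xIFNRs livers (adjusted p = 0.0391), as were Smim11 (0.035) and Hmgn1 (0.035) and 4 other members, against 0.237% of all genes called higher. Of the 12 such numbers, whose meaning the labels do not give, 5 recur, each in libraries of different groups (11 libraries in all). The consensus correlation over genes within a number was 0.407 (limma). Between whole libraries, the 7 pairs that share a number had residual correlations of −0.062 to 0.320, with 2 above 0.1. With this block 0 members were called in Dp16 livers (0.0329% of all genes called higher and 0.0658% lower). Cryzl1 lies within the annotated span of Atp5o on the same strand, and Itsn1 overlaps that span on the opposite strand.

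Pigp, a subunit of the enzyme that starts the synthesis of glycosylphosphatidylinositol anchors, measured 9.12 to 20.3 CPM (median 16.3) in Dp16-2xIFNRs livers, 5.76 to 28.5 CPM (median 10.9) in Dp16 livers and 3.23 to 20.2 CPM (median 11.5) in WT livers. The groups overlapped over most of their ranges. Pigp had a log2 fold change of 0.48 (SE 0.41) in Dp16-2xIFNRs and 0.30 (SE 0.42) in Dp16 livers. C2cd2, a C2 domain protein, had the third highest mean RPKM in WT livers, with 17.4 ± 2.58 RPKM in Dp16-2xIFNRs, 26.4 ± 13.1 RPKM in Dp16 and 17.5 ± 5.45 RPKM in WT livers (SD, n = 6). It measured 95.5 to 137 CPM (median 118) in Dp16-2xIFNRs livers, 82.96 to 219 CPM (median 162) in Dp16 livers and 78.2 to 155 CPM (median 109) in WT livers. The Dp16-2xIFNRs libraries lay within the WT range, and 3 of 6 Dp16 libraries were far above it. The log2 fold change of C2cd2 was 0.06 (SE 0.22) in Dp16-2xIFNRs and 0.46 (SE 0.23) in Dp16 livers. Slc5a3, the sodium and myo-inositol cotransporter, had 0.14 (SE 0.31) and 0.54 (SE 0.31) in the same comparisons, and it lies within the span of Mrps6 on the same strand (29152 bases). Kcnj15, an inward rectifier potassium channel, had 0.62 (SE 0.70) in Dp16-2xIFNRs and 1.22 (SE 0.69) in Dp16 livers at an RPKM of at most 0.13 in the group means.

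Smim11, a small membrane protein, measured 18.8 to 30.2 CPM (median 21.4) in Dp16-2xIFNRs livers, 9.77 to 33.97 CPM (median 15.1) in Dp16 livers and 7.25 to 15.9 CPM (median 9.59) in WT livers. All Dp16-2xIFNRs libraries exceeded all WT libraries, as did 3 of 6 Dp16 libraries, with library 4 far above the others. Smim11 had a log2 fold change of 0.99 (SE 0.27, edgeR adjusted p = 0.243) in Dp16-2xIFNRs livers and 0.58 (SE 0.27, edgeR adjusted p = 0.999) in Dp16 livers. At the cell surface, Igsf5, an immunoglobulin superfamily protein of tight junctions, measured 21.8 to 36.95 CPM (median 25.2) in Dp16-2xIFNRs livers, 9.095 to 49.4 CPM (median 19.1) in Dp16 livers and 7.495 to 20.9 CPM (median 14.3) in WT livers. Its Dp16-2xIFNRs libraries lay above its WT libraries, and 3 of 6 Dp16 libraries did so too. Igsf5 had a log2 fold change of 0.93 (SE 0.32) in Dp16-2xIFNRs and 0.57 (SE 0.32) in Dp16 livers. Igsf5 shares 60328 bases of its span with Gm49948 on the same strand. Cldn14, a claudin of tight junctions, measured 15.2 to 21.6 CPM (median 20.04) in Dp16-2xIFNRs livers, 10.7 to 19.6 CPM (median 14.8) in Dp16 livers and 7.98 to 19.4 CPM (median 11.4) in WT livers, with log2 fold changes of 0.68 (SE 0.19) in Dp16-2xIFNRs and 0.31 (SE 0.18) in Dp16 livers and overlap between the groups.

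Ripk4, a receptor-interacting kinase known from the differentiation of skin, measured 0.743 to 5.58 CPM (median 2.905) in Dp16-2xIFNRs livers, 2.89 to 6.01 CPM (median 5.202) in Dp16 livers and 2.15 to 4.02 CPM (median 2.56) in WT livers. The Dp16-2xIFNRs libraries spread on both sides of the WT range, and 4 of 6 Dp16 libraries were above it. Ripk4 had a log2 fold change of −0.01 (SE 0.31) in Dp16-2xIFNRs and 0.74 (SE 0.31) in Dp16 livers. Tmprss2, a transmembrane serine protease, had 0.51 (SE 0.31) in Dp16-2xIFNRs and 0.67 (SE 0.31) in Dp16 livers.

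Mx1 and Mx2 encode dynamin-like GTPases that interferon induces and that act against viruses. Most inbred mouse strains, C57BL/6J among them, carry a defective Mx1, and the annotation lists Mx2 as well as Mx1 as a polymorphic pseudogene. Whether these mice make a working protein from either gene was not tested. Mx1 measured 0.315 to 0.895 CPM (median 0.637) in Dp16-2xIFNRs livers, 0.1805 to 1.397 CPM (median 0.795) in Dp16 livers and 0.124 to 0.781 CPM (median 0.474) in WT livers. Mx2 measured 1.596 to 2.97 CPM (median 2.21) in Dp16-2xIFNRs livers, 1.59 to 2.98 CPM (median 2.31) in Dp16 livers and 0.351 to 2.05 CPM (median 1.13) in WT livers. The groups overlapped for both, and 4 of 6 Dp16 and 3 of 6 Dp16-2xIFNRs libraries lay above the highest WT library for Mx2. The log2 fold change of Mx1 was 0.47 (SE 0.53) in Dp16-2xIFNRs and 0.69 (SE 0.53) in Dp16 livers, and that of Mx2 was 0.88 (SE 0.34) and 0.90 (SE 0.34). In Dp16-2xIFNRs against Dp16 livers, where the receptor copies differ, it was −0.22 (SE 0.53) for Mx1 and −0.02 (SE 0.34) for Mx2, with 95% intervals of −1.32 to 0.88 and −0.72 to 0.68. The 2 genes are close in sequence, so reads may be shared between them. Of 20 interferon-stimulated genes outside the segment, 4 were above 0 in Dp16-2xIFNRs (47.4% of all genes) and 5 in Dp16 livers (51.4%) against WT. Their median log2 fold changes were −0.18 and −0.15, and edgeR and limma-voom called 0 in either comparison. At an unadjusted p under 0.05, 0 were higher in Dp16-2xIFNRs (3.43% of all genes) and 0 in Dp16 livers (2.52%). In Dp16-2xIFNRs livers 5 were lower (5.23% of all genes) and in Dp16 livers 1 was lower (2.35%). DESeq2 called Ifih1, a sensor of viral RNA, lower in Dp16-2xIFNRs livers (0.322% of all genes called lower). It called 0 of the 20 in Dp16 livers (0.283% of all genes higher and 0.191% lower). Between the carrier groups, Dp16-2xIFNRs against Dp16, 7 of the 20 were above 0 (48.1% of all genes), with a median of −0.08. In that comparison edgeR called 0 of the 20 (0% of all genes). At an unadjusted p under 0.05, 0 were higher (2.21% of all genes) and 3 were lower (7.11%).

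The 11 members below the filter had at most 86 counts in all 18 libraries together. Kcne2 and Kcne1, accessory subunits of KCNQ potassium channels, Sim2, a transcription factor of the developing brain, and Kcnj6, a G-protein-gated potassium channel, had 0 counts in every library, which allows up to 0.00353 CPM over all libraries (3 of 850202623 counts, counting error only). Sh3bgr had 29 counts in Dp16-2xIFNRs, 25 in Dp16 and 32 in WT livers. Clic6, a chloride intracellular channel protein, had 8 counts in Dp16-2xIFNRs, 23 in Dp16 and 42 in WT livers. Fam3b, a secreted protein known from pancreatic islets, had 17, 18 and 0 counts in the same groups. B3galt5, a galactosyltransferase, had 5, 27 and 0 counts, and Lca5l had 0, 18 and 11. Dscam, a cell adhesion molecule of neurons, had 14 counts in Dp16 livers and 0 in the other groups, and Pcp4, a calmodulin-binding protein of neurons, had 5, 7 and 4 counts.

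The spread of the members in Dp16-2xIFNRs livers followed gene length more closely than position. Length here is the length per gene that the authors' RPKM values imply, and the 32 tested members were divided at their median of 3462.5 bases. In Dp16-2xIFNRs against WT the 16 shorter members had a median log2 fold change of 0.86 (0.47 to 1.07) and the 16 longer a median of 0.14 (−0.10 to 0.95). In Dp16 against WT the medians were 0.57 for the shorter and 0.68 for the longer members, with all 32 above 0. In Dp16-2xIFNRs against Dp16 they were 0.30 and −0.55, and 0 of the 16 longer members were above 0. Spearman's rho between length and log2 fold change across the 32 members was −0.635 in Dp16-2xIFNRs against WT, 0.257 in Dp16 against WT and −0.792 in Dp16-2xIFNRs against Dp16; members share libraries and are not independent. With the position along the segment, rho was −0.211, 0.0392 and −0.146 for the same comparisons.

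Genes of other chromosomes had a slope in the same direction. Over 14734 tested genes off chromosome 16, rho with length was −0.380 in Dp16-2xIFNRs against WT, 0.242 in Dp16 against WT and −0.536 in Dp16-2xIFNRs against Dp16. With the same division at 3462.5 bases, the shorter genes off chromosome 16 had a median log2 fold change of 0.08 in Dp16-2xIFNRs against WT and the longer −0.20. In Dp16 against WT the medians were −0.05 for the shorter and 0.08 for the longer genes.

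**Figure D3:**
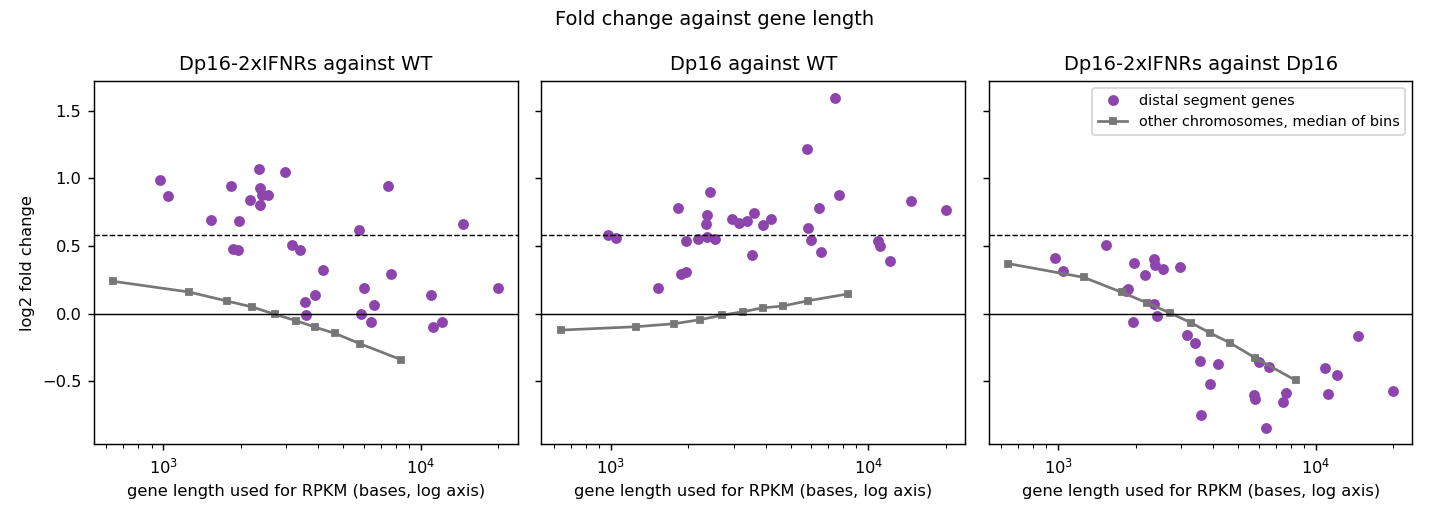
Log2 fold change (vertical axis) against gene length in bases (horizontal log axis) for the 32 tested members (points) and the medians of 10 length bins of genes on other chromosomes (line), in Dp16-2xIFNRs against WT, Dp16 against WT and Dp16-2xIFNRs against Dp16; the dashed line marks 0.585. In the left panel the 16 shorter members lie between 0.47 and 1.07 and most of the longer ones near 0, with the grey line falling from 0.24 to −0.34.

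The slope differed between libraries of 1 group as well. Taking each library as log2 CPM less the WT mean, the shorter minus the longer genes off chromosome 16 differed by 0.15 to 0.47 in Dp16-2xIFNRs libraries, −0.75 (library 5) to 0.82 (library 4) in Dp16 libraries and −0.41 (library 1) to 0.51 (library 6) in WT libraries. For the members the same difference was 0.40 to 1.06 in Dp16-2xIFNRs, −1.01 (library 5) to 1.22 (library 4) in Dp16 and −0.75 (library 1) to 0.76 (library 5) in WT libraries. The 6 Dp16-2xIFNRs libraries all had shorter genes higher than longer ones, and Dp16 libraries lay on both sides of 0; WT libraries are centred on 0 by construction. What made the libraries differ in this way was not tested.

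**Figure D4:**
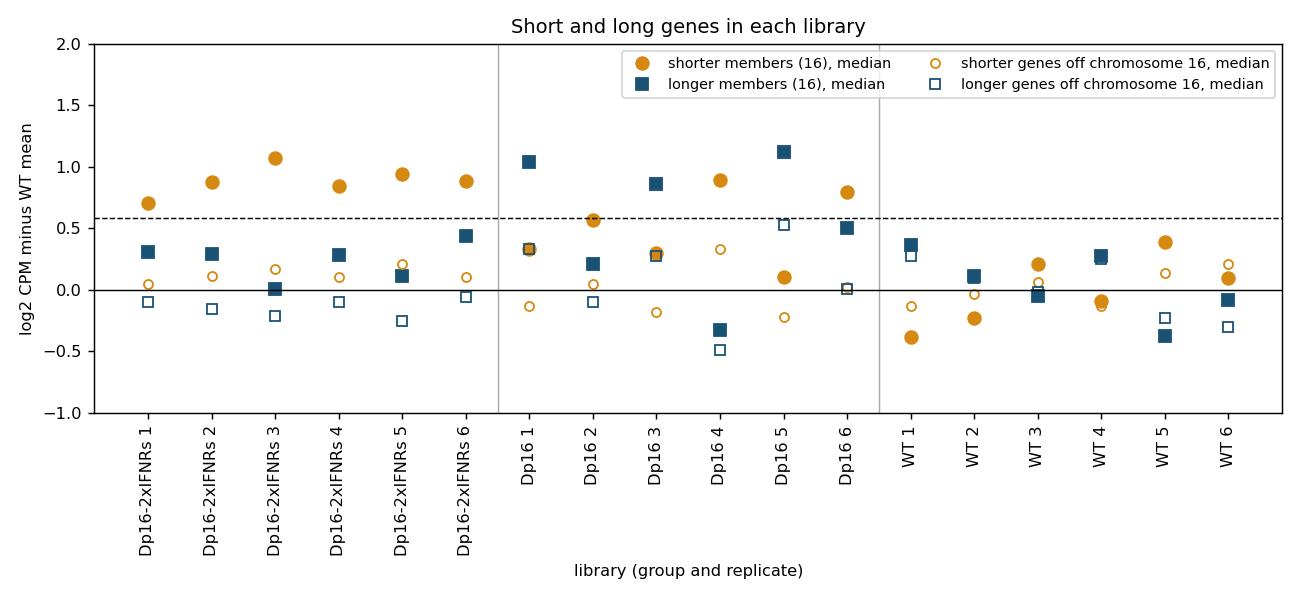
Median log2 CPM less the WT mean (vertical axis) in each of the 18 libraries (horizontal axis) for the 16 shorter and 16 longer members (filled) and for shorter and longer genes off chromosome 16 (open); the dashed line marks 0.585. In Dp16 library 4 the shorter members lie at 0.89 and the longer at −0.33, in Dp16 library 5 the shorter lie at 0.11 and the longer at 1.12, and the open symbols are ordered in the same way.

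A fit with a gene length offset for each library, estimated from genes off chromosome 16 and chosen after the data were seen, gave closer medians for the 2 carrier groups. The median log2 fold change of the 32 members was 0.57 (1.49-fold) in Dp16-2xIFNRs and 0.61 (1.52-fold) in Dp16 livers against WT, with all 32 above 0 in both, where 49.3% and 49.9% of all genes were. Between Dp16-2xIFNRs and Dp16 livers the median was −0.000635 with 16 of 32 above 0 (48.8% of all genes), and edgeR called 0 members and 0 of all genes. At an unadjusted p under 0.05 there were 0 members higher (1.8% of all genes) and 1 lower (3.1%), Ets2 at −0.37 (SE 0.18). The shorter members still had the larger median in Dp16-2xIFNRs against WT, 0.78 against 0.36 for the longer. The median residual SD of the members on the log2 scale was 0.449 with the offset and 0.557 without, smaller in 22 of 32 (68.8%); in the genes off chromosome 16, from which the offset was estimated, it was 0.437 with and 0.519 without, smaller in 9500 of 14734 (64.5%).

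With the offset edgeR called 5 members in Dp16-2xIFNRs livers (0.197% of all genes called higher) and 2 in Dp16 livers (0.0921%). These were Vps26c (log2 0.86, SE 0.14, adjusted p = 0.00935), Psmg1 (log2 0.65, SE 0.10, adjusted p = 0.00363), Tmem50b (log2 1.02, SE 0.18, adjusted p = 0.0112), Hmgn1 (log2 0.79, SE 0.16, adjusted p = 0.0348) and Smim11 (log2 0.82, SE 0.13, adjusted p = 0.00537) in Dp16-2xIFNRs livers. In Dp16 livers they were Psmg1 (log2 0.62, SE 0.10, adjusted p = 0.00705) and Smim11 (log2 0.68, SE 0.13, adjusted p = 0.0349). Length-adjusted Psmg1 was 31.4 to 35.4 CPM (median 34.2) in Dp16-2xIFNRs livers, 29.6 to 35.4 CPM (median 33.6) in Dp16 livers and 19.02 to 25.03 CPM (median 21.3) in WT livers, and every library of both carrier groups lay above every WT library. Smim11 was 16.2 to 22.1 CPM (median 18.03) in Dp16-2xIFNRs livers, 13.4 to 20.04 CPM (median 16.6) in Dp16 livers and 9.04 to 12.03 CPM (median 10.4) in WT livers, again with no overlap between carriers and WT. These were the 2 of 32 members without overlap for both carrier groups, against 0.0789% of all genes. For Son, length-adjusted values were 53.7 to 68.4 CPM (median 59.4) in Dp16-2xIFNRs livers, 52.6 to 70.1 CPM (median 59.3) in Dp16 livers and 38.6 to 57.2 CPM (median 48.3) in WT livers, and the carrier groups had nearly equal medians above that of WT. Ripk4 was 0.737 to 5.36 CPM (median 2.91) in Dp16-2xIFNRs livers, 2.65 to 5.99 CPM (median 4.49) in Dp16 livers and 1.93 to 3.87 CPM (median 2.499) in WT livers, and its log2 fold change of −0.66 in Dp16-2xIFNRs against Dp16 livers was the furthest from 0 of the 32 in that comparison with the offset.

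**Figure D5:**
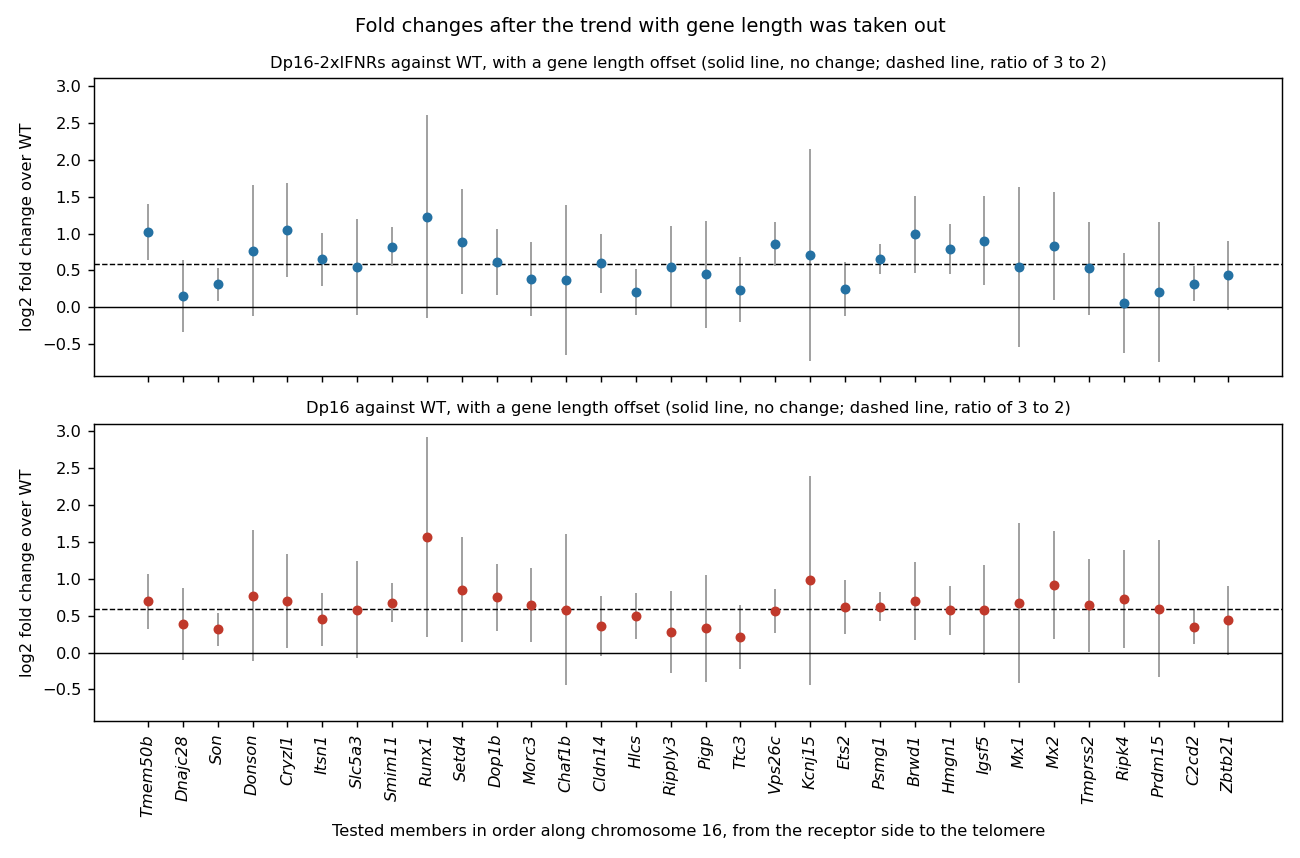
Log2 fold change over WT (vertical axis) of the 32 tested members in chromosomal order (horizontal axis) with the gene length offset, for Dp16-2xIFNRs livers above and Dp16 livers below; points are edgeR estimates and bars their 95% intervals. All 32 points lie above 0 in both panels, with medians of 0.57 and 0.61.

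Other parts of chromosome 16 give the setting of these values. In the 43 tested genes of the segment before the receptors, the median log2 fold change was 0.34 in Dp16-2xIFNRs and 0.61 in Dp16 livers against WT. In the 377 tested genes of chromosome 16 outside the segment it was −0.01 and 0.02. In the 16 other tested genes of the segment beyond the receptors it was 0.87 and 0.49. Of these, 15 were above 0 in each comparison, and the lowest was at −0.05 in Dp16-2xIFNRs and −0.69 in Dp16 livers. Beside these the members had 0.50 and 0.64, and the differences between the sets were not tested. In the 4 receptors the median was 0.10 in Dp16-2xIFNRs and 0.55 in Dp16 livers. The values by part are from the fit without the gene length offset.

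Genes that work with the members, or are induced like Mx1 and Mx2, but lie elsewhere were taken from 10 lists of 77 genes, 72 of them tested. In Dp16-2xIFNRs livers 35 were above 0 against WT (47.4% of all genes), and edgeR called 0 (0.0723% of all genes higher and 0.0263% lower). At an unadjusted p under 0.05, 1 was higher (3.43% of all genes) and 8 were lower (5.23%). In Dp16 livers 31 were above 0 (51.4%) and edgeR called 0 (0.0197% higher and 0.0197% lower). At an unadjusted p under 0.05, 0 were higher there (2.52%) and 1 was lower (2.35%). DESeq2 called 1 of the 72, Ifih1, lower in Dp16-2xIFNRs livers (0.322% of all genes) and 0 in Dp16 livers, and limma-voom called 0 in both. The fold changes of the lists are from the fit without the gene length offset. The 4 other proteasome assembly chaperones had a median log2 fold change of 0.19 in Dp16-2xIFNRs and −0.08 in Dp16 livers, with Psmg2 at 0.19 (SE 0.19) and −0.15 (SE 0.19). The 16 retriever and commander genes, partners of Vps26c, had 0.16 and −0.07, with Snx17, the sorting nexin that brings cargo to retriever, at −0.12 (SE 0.13) and −0.22 (SE 0.13). The 8 carboxylases and biotin-recycling genes served by Hlcs had −0.26 and 0.01, with Mccc2, a subunit of methylcrotonyl-CoA carboxylase, at −0.34 (SE 0.13) and −0.28 (SE 0.13). Of these 8, 0 were above 0 in Dp16-2xIFNRs and 5 in Dp16 livers. In Dp16-2xIFNRs livers 3 of them were lower with an unadjusted p under 0.05 (5.23% of all genes). The other 5 genes lower by that measure were interferon-stimulated genes. The other 3 HMGN genes had 0.06 and 0.09, with Hmgn2 at 0.06 (SE 0.23) and −0.32 (SE 0.23).

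Among the remaining lists, the 4 partners of Chaf1b had medians of 0.17 in Dp16-2xIFNRs and −0.08 in Dp16 livers, with the histone chaperone Asf1a at −0.12 (SE 0.26) and −0.35 (SE 0.26). The 6 partners of Pigp had 0.12 and −0.05, with Dpm2 at 0.12 (SE 0.17) and −0.22 (SE 0.17), and the 7 tested genes of myo-inositol metabolism had 0.03 and 0.24, with the inositol phosphatase Minpp1 at −0.30 (SE 0.15) and −0.28 (SE 0.15). Runx3 and Cbfb, the tested partners of Runx1, were at 0.73 (SE 0.79) and 0.06 (SE 0.16) in Dp16-2xIFNRs and at 1.07 (SE 0.80) and 0.04 (SE 0.16) in Dp16 livers. Kcnq1, a channel subunit that Kcne1 and Kcne2 accompany, was at −0.45 (SE 0.37) in Dp16-2xIFNRs and at −0.45 (SE 0.38) in Dp16 livers. Among the interferon-stimulated genes Rtp4 was at −0.15 (SE 0.16) and −0.43 (SE 0.17), and Dhx58 at −0.49 (SE 0.22) and −0.41 (SE 0.22).

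The carrier effects on the members were set side by side in males and females. In Dp16-2xIFNRs livers the median difference of the 32 members from WT (log2 of CPM with 0.05 added) was 0.60 in males and 0.51 in females, and in Dp16 livers it was 0.62 and 0.79 (3 libraries per sex and group). An edgeR interaction of sex and genotype called 0 members and 0 of 15208 genes for either carrier group. At an unadjusted p under 0.05 it gave 1 member for each, Ripk4 for Dp16-2xIFNRs (2.24% of all genes) and Ttc3 for Dp16 (7.88% of all genes). The effect on Ripk4 in males minus that in females was −1.45 (SE 0.56, edgeR adjusted p = 1.00), and for Ttc3 it was −0.72 (SE 0.30, edgeR adjusted p = 0.582). The sample descriptions hold a number with 1 of 2 leading parts. Within the lower the median difference of the members from WT was 0.23 in Dp16-2xIFNRs (4 libraries) and 0.58 in Dp16 livers (3 libraries, against 4 WT), and within the higher it was 0.62 (2 libraries) and 0.59 (3 libraries, against 2 WT); the labels do not say what the number stands for.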

How the data were processed

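Liver RNA was prepared with TRIzol, selected for poly-A, made into libraries with a strand-specific kit and sequenced in pairs, per the labels' protocols. The authors deposited 1 table of raw counts per gene and 1 of RPKM. The submitters' processing notes name HISAT2 2.1.0, HTSeq 0.6.1, SAMtools 1.5 and FastQC 0.11.5, with bcl2fastq, and the build GRCm38; how counting treated strand and reads with several matches is not stated there. The deposited RPKM values equal the deposited counts divided by 1 length per gene and the column total. Coordinates and gene types are those of GENCODE M21, which matched 55144 of 55385 gene IDs (99.56%) and may not be the release the authors used, so a coordinate may differ slightly from theirs.

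Genes with too few counts for a test were removed with filterByExpr by group. One edgeR 4.0.16 quasi-likelihood fit (robust, TMM factors, prior count 2, R 4.3.3) over all 18 libraries had genotype and sex as terms, and p-values were adjusted by the Benjamini-Hochberg method over 15208 genes. Contrasts set Dp16-2xIFNRs, Dp16 and their mean against WT, and Dp16-2xIFNRs against Dp16. The median biological coefficient of variation was 35.1%, which limits what 6 libraries per group can call. The alternatives were DESeq2 1.42.0, limma 3.58.1, other scalings, filters, terms and subsets, and each library left out. The script for the fit and that for the length trend were tested on simulated data. Libraries with the same replicate number had residual correlations of −0.245 to 0.360, with 6 of 18 pairs above 0.1. Other pairs between groups had −0.445 to 0.494, with 19 of 90 above 0.1, and the libraries were not paired. No 2 libraries of a group agreed within sampling noise.

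The members and lists were chosen with earlier results of these data known. Values per library are given for members with the 5 largest or smallest changes against WT (mean log2 CPM of at least 1), the 4 smallest p-values in Dp16-2xIFNRs against Dp16, called members, Tmem50b, Zbtb21, Mx1, Mx2, Runx1, Ets2, Hmgn1, Ttc3, Son and Itsn1; those of Psmg1 were added after its values were seen. From each list of genes that work with a member, 1 or both of the 2 genes of smallest p in Dp16 against WT are named.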

Additional observations from a re-analysis of the deposited data

Results flagged for a closer look

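In 6 of the 78 groups of 6 libraries examined, 1 library lay far from the other 5 by Dixon's test at its 95% level (the gap to the nearest library over the whole range); chance alone flags about 5% of groups. Dp16 library 4 had 33.97 CPM of Smim11, against 9.768 to 18.59 CPM in the other Dp16 libraries, and 34.91 CPM of Vps26c, against 18.47 to 23.22 CPM. Dp16-2xIFNRs library 1 had 118.1 CPM of Hmgn1, against 148.9 to 165.6 CPM in the others of its group, and 11.2 CPM of Zbtb21, against 4.698 to 7.048 CPM. WT library 1 had 12.45 CPM of Zbtb21, against 3.486 to 5.948 CPM in the other WT libraries. WT library 5 had 7.071 CPM of Hlcs, against 11.86 to 14.71 CPM. In the genes off chromosome 16, Dp16 library 4 had the largest difference of shorter minus longer genes (0.82) and WT library 1 the lowest of its group (−0.41), and the part of these in the values above was not tested.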

How the results depend on the processing

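The median of the members stayed above 0 against WT in Dp16-2xIFNRs, in Dp16 and in both carrier groups under every alternative run, while the counts called were small. Percentages in brackets are the share of all genes called higher in the same fit. Of the 32 members, Dp16 against WT had 0 called (0.0197%). That count moved only with DESeq2 (1, 0.283%), the gene length offset (2, 0.0921%) and the offset without Dp16 libraries 4 and 5 (1, 0.0572%). Dp16-2xIFNRs against WT had 2 called (0.0723%), which became 1 with no sex term (0.0329%), 0 in males (0%) and 0 in females alone (0%). The count was 4 with only the compared groups (0.167%) and 7 with the number in the description as a random block (0.237%). With limma on log2(RPKM + 0.1) it was 4 (0.178%) and with log2(RPKM + 1) 4 (0.118%). It was 6 with DESeq2 (0.513%), 5 with the length offset (0.197%), 4 without Dp16 libraries 4 and 5 (0.248%) and 6 with the offset and without them (0.305%). Both carrier groups against WT had 3 called (0.112%), which became 0 with no low count filter (0.0432%) and 0 with no sex term (0.0197%). The count was 0 in males (0%), 0 in females (0%) and 5 with DESeq2 (0.566%). With the offset it was 5 (Tmem50b, Smim11, Vps26c, Psmg1 and Hmgn1, without Brwd1, 0.283%). It was 5 without Dp16 libraries 4 and 5 (0.178%) and 6 with the offset and without them (0.286%). With the replicate number as a block, which the labels do not give as a pairing, 2 were called in Dp16-2xIFNRs against WT (0.0921%) and 0 in Dp16 against WT (0.0263%). It gave 0 in Dp16-2xIFNRs against Dp16 (0%) and 1 in both carrier groups (0.0855%). In 10 of 36 comparisons, each with the 6 libraries of another group, a library correlated best with its own number. With 1 library left out, 0 to 4 were called in Dp16-2xIFNRs against WT (0.0129% to 0.194%) and 0 in Dp16 against WT (0.00646% to 0.0259%). There were 0 to 4 in both carrier groups (0.0129% to 0.175%) and 0 between the carrier groups (0%).

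The median log2 fold change with log2(RPKM + 1) was 0.16 in Dp16-2xIFNRs, 0.408 in Dp16 and 0.29 in both carrier groups against WT, where the added 1 shrinks the changes of low genes, and with log2(RPKM + 0.1) it was 0.296 in Dp16-2xIFNRs against WT. Over libraries left out it was 0.441 to 0.603 in Dp16-2xIFNRs, 0.61 to 0.668 in Dp16 and 0.484 to 0.608 in both. In Dp16-2xIFNRs against Dp16 the median was −0.371 with no filter, −0.357 in females, −0.313 with log2(RPKM + 0.1), −0.000635 with the length offset and 0.0812 with the offset and without Dp16 libraries 4 and 5, and −0.315 to −0.121 over libraries left out. The offset and the removal of those libraries were chosen after seeing the data. Among the members named for each comparison, over these alternatives and libraries left out, the log2 fold change took the other sign in 42 cases in Dp16-2xIFNRs against WT, 2 in Dp16 against WT and 2 between the carrier groups; the cause was not tested. Over all 32 members, the offset alone changed the sign of 5 in Dp16-2xIFNRs against WT (Ripk4, Hlcs, Son, Ttc3 and Prdm15, the last at 0.203), of 4 in Dp16-2xIFNRs against Dp16 (Ttc3, Brwd1 at 0.294, Itsn1 at 0.207 and Zbtb21 at 0.00046) and of 0 in Dp16 and in both carrier groups against WT. Pigp in Dp16 against WT was −0.311 in females and −0.106 to 0.509 over libraries left out. Ttc3 in Dp16-2xIFNRs against Dp16 was 0.0341 with the offset and 0.111 with the offset and without Dp16 libraries 4 and 5.

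The others are in Dp16-2xIFNRs against WT. Ripk4 and Hlcs were 0.00639 and 0.0164 with DESeq2 size factors, 0.0127 and 0.0193 with a filter at 1 CPM in 6 libraries, 0.139 and 0.0059 with no sex term, 0.0734 and 0.0137 with limma-voom, and 0.00668 and 0.0163 with DESeq2. Hlcs was 0.00795 with the description number as a term and 0.052 with it as a random block. C2cd2 was −0.036 in males. In females Son was 0.103, Ttc3 0.148, Ripk4 0.661 and Hlcs 0.0583. With the offset Son was 0.315, Ttc3 0.241, Ripk4 0.0635 and Hlcs 0.212, and with the offset and without Dp16 libraries 4 and 5 they were 0.322, 0.244, 0.0521 and 0.213. Over libraries left out C2cd2 was −0.0168 to 0.207, Hlcs −0.0941 to 0.086, Ripk4 −0.168 to 0.216 and Son −0.253 to 0.0908.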
